A study of Mus musculus with 908 samples.

Results

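The cells described here are single mouse skin squamous cell carcinoma cells sorted after adoptive cell transfer and split by whether they carried transcripts of both Mki67, which encodes the proliferation antigen Ki-67, and Top2a, the DNA topoisomerase of dividing cells. They came from the plates named OT2 and OT_B, and a library was kept if at least 2000 genes reached a TPM (a gene's length-normalised share of a library's transcripts, on a fixed total) of at least 1. Of 192 libraries, 177 were kept, and these held 30 cycling cells with both genes at a TPM of at least 1 (13 on OT2, 17 on OT_B) and 93 non-cycling cells with both genes under 1 (42 and 51). A further 54 cells had only Mki67 (22 cells) or only Top2a (32 cells) at that level and were left out of the comparison. The 123 cells compared belong to a series of 908 libraries, of which 546 are labelled after and 362 before the transfer. Because the classes were chosen by the RNA that is then compared, every difference below describes these cells and carries no test.

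The study asked which tumour cells resist an immune attack. Every cell after transfer carried the strain label TRE-OVA;TRE-HrasG12V:PGK-rtTA3P2AmCherry, that is, ovalbumin and an activated Hras under tetracycline-responsive promoters, together with a transactivator and mCherry under the Pgk promoter, so the target antigen and the oncogene are transgenes. The mice were labelled P60-P90 with sex Mixed, the treatment was ACT immunotherapy, and the sort took mCherry+ cells without CD45, CD117, CD140a or CD31, which removes leukocytes, fibroblasts and endothelial cells among others. The labels name plates but no animal, so each plate is a set of wells and not a replicate, and cells were not treated as replicates.

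A dividing cell copies its DNA in S phase, with replication licensing factors, nucleotide synthesis and a burst of histone transcripts, and then assembles a spindle and divides under cyclin B and Cdk1. Many of the genes for the second step share promoter elements known as the CHR and the CCAAT box, while many replication genes carry E2F sites. In stratified epithelium, division is largely restricted to the basal layer, where cells adhere to the basement membrane through integrins and express Krt5 and Krt14. Cells that move up leave the cycle, switch on Krt1, Krt10 and desmosomal genes, and build the cornified envelope, and in squamous tumours this order is kept in part.

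The promoters shown are those of the 4 members of the G2 and mitosis list with the largest differences. They are the 250 bases before each RefSeq start on GRCm38.p6, in the direction of transcription, with motif matches on either strand in capitals. The motifs searched were the CHR as TTTGAA, the CCAAT box by the letters of its name, and the E2F site as any of TTTGGCGC, TTTCCCGC, TTTCGCGC and TTTGCCGC. They lie at chr10:69352913-69353162 (minus strand, Cdk1, the mitotic kinase), chr2:164769679-164769928 (plus, Ube2c, the ubiquitin-conjugating enzyme of the anaphase-promoting complex), chr11:117848987-117849236 (plus, Birc5, the chromosomal passenger survivin) and chr13:100786487-100786736 (minus, Ccnb1, cyclin B1).
Cdk1: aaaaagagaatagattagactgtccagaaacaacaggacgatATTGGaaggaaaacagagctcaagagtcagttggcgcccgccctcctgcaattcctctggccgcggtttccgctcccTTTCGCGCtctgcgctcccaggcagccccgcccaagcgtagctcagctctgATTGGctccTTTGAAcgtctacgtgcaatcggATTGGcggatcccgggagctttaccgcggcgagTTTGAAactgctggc
Ube2c: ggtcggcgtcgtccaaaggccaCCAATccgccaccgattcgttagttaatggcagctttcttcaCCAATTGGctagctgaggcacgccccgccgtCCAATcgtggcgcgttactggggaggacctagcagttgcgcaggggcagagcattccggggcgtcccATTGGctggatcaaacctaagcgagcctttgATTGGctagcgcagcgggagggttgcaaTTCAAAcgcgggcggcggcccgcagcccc
Birc5: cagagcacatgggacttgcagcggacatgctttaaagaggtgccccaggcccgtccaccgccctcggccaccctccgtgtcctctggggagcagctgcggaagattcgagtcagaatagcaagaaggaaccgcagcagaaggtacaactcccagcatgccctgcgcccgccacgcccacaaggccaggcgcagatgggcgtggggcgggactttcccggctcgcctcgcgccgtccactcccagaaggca
Ccnb1: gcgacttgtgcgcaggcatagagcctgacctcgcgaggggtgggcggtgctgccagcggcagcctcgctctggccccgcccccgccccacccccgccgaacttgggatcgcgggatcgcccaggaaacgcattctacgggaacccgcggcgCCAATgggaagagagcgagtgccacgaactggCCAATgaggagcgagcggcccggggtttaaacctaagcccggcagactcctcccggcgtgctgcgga
Cdk1 held CHR letters at 71 and 15 bases before its start, CCAAT letters at 208, 80 and 48, and an E2F word at 131. Ube2c held 1 CHR match and 6 CCAAT matches, of which 1 pair overlaps, Ccnb1 held 2 CCAAT matches, and Birc5 held none of these letters in this window. Of the 46 genes of the G2 and mitosis list, 38 had a promoter in the table, and 28 of them (73.7%) held CCAAT letters, against 40.5% of the 8031 compared genes with a promoter and 37.5% of all 27025 genes in the table. CHR letters stood in 10 of the 38 (26.3%, against 12.7% and 18.3%) and both elements in 9 (23.7%, against 4.91% and 6.45%). E2F words were found in 1 of these 38 promoters (2.63%) and in 8 of 35 promoters of the S phase list (22.9%), against 4.03% of compared genes and 2.16% of all genes. The S phase list held CCAAT letters in 21 of its 35 promoters (60%), so their high share was not particular to G2 and mitosis. It held CHR letters in 5 (14.3%) and both elements in 3 (8.57%). A match is a run of letters and not a measured binding site.

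The values that chose the classes were as follows. Mki67 ranged from 1.73 to 54.5 TPM in cycling cells (median 13.89) and reached at most 0.89 in non-cycling cells, of which 18 were above 0. Top2a ranged from 1.64 to 108.58 TPM (median 40.05) against a highest value of 0.98, with 12 non-cycling cells above 0. In 4 cycling cells Mki67 was under 5 TPM, and in 4 Top2a was, so a few cells lie near the limit. Cells with a single one of the genes reached 22.25 TPM of Mki67 and 11.56 TPM of Top2a.

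Cycling cells made up 16.9% of the kept cells (30 of 177, exact Clopper-Pearson 95% interval 11.7 to 23.3, here and below for counting error only). The share was 14.9% on OT2 (8.20 to 24.2) and 18.9% on OT_B (11.4 to 28.5), and these intervals overlap. All 123 cells carried keratinocyte markers, whose summed TPM ranged from 6246 to 25138 in cycling and from 1354 to 29471 in non-cycling cells. Ptprc, which encodes CD45, was at 0 in all 30 cycling and 93 non-cycling cells (upper exact limits 11.6% and 3.89%). Under a TPM of 1 in every cell were Cd3e, Cd3g, Cd8a, Cd4, Trac, Nkg7 and Gzmb of lymphocytes and Lyz2, Adgre1, Fcer1g, Tyrobp and C1qa of myeloid cells. The row for Trbc2, a T cell receptor constant region, stood apart from them, with 29 of 30 cycling and 78 of 93 non-cycling cells at a TPM of at least 1 and medians of 32.8 and 24.5 TPM. The 12 lymphocyte markers summed to 0 to 227 TPM in cycling and 0 to 215 TPM in non-cycling cells, the 10 myeloid markers to 0 to 23.03 and 0 to 19.2 TPM, and all 7 fibroblast markers were under a TPM of 1 in cycling cells. Of the non-cycling cells, 1 had 3 fibroblast markers. Of the myeloid markers, Cd68 was detected in 5 of 30 cycling and 14 of 93 non-cycling cells, and Cd14 in 6 and 16. At least 1 myeloid marker was detected in 11 cycling and 31 non-cycling cells. Cd3d, Cd8b1, Lck, Csf1r and Itgam were each detected in at most 2 cells of a class. Pecam1, which encodes CD31, was detected in 9 of 30 cycling and 11 of 93 non-cycling cells although the sort was against CD31, and Acta2, smooth muscle actin, in 13 and 17. The 6 endothelial markers summed to 0 to 49.5 and 0 to 45.04 TPM, with Kdr, Tek, Cldn5 and Emcn under a TPM of 1 in every cell. The 6 pericyte or muscle markers summed to 0 to 78.1 and 0 to 589 TPM, with Rgs5, Myh11 and Des under a TPM of 1 in every cell. The part of such transcripts in the differences below was not tested.

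Libraries of cycling cells held more genes, with 5765 to 9120 genes at a TPM of at least 1 (median 7278) against 3063 to 8464 (median 6484) in non-cycling cells. The ranges overlap, and the cells with 1 marker had a median of 6572. Spike-in RNA took a median of 0.105% of the TPM in cycling and 0.140% in non-cycling libraries, the ribosomal rows 74.9% and 75.1%, and mitochondrially encoded genes 1.72% and 1.75%. Read depth is unknown, since TPM keeps none, and the part of the gene number in the differences below was not tested. Values within cells of 6000 to 8000 genes (22 cycling and 57 non-cycling cells) are given for some lists and for selected genes. This band narrows the range of gene numbers without equalising them.

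**Figure D1:**
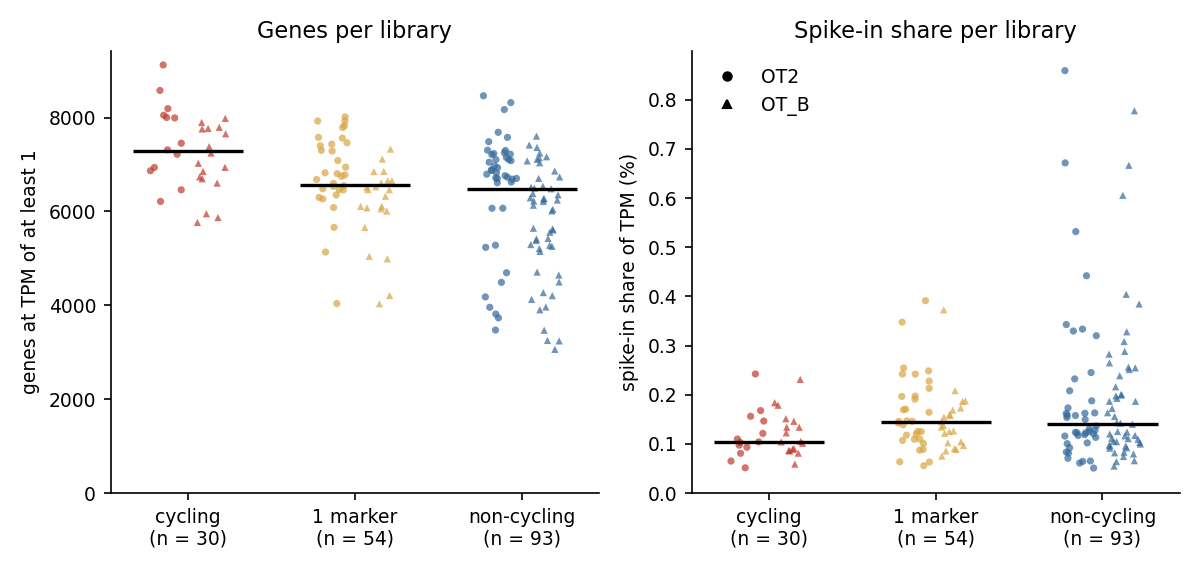
Genes at a TPM of at least 1 (left axis) and share of TPM in spike-in RNA in percent (right axis) for each kept library, by class. Circles are OT2, triangles OT_B and bars medians. Cycling libraries have a median of 7278 genes and non-cycling ones 6484, with overlapping ranges.

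Among 11468 genes with a TPM of at least 1 in at least 10% of the 123 cells, 1218 (10.6%) were at least 1 higher in mean log2(TPM + 1) in cycling cells and 132 (1.15%) at least 1 lower. This scale has a pseudocount of 1, so it understates the change of rare genes. All genes together were shifted upwards by a median of 0.29 (0.28 on OT2, 0.30 on OT_B), and 74.7% of genes lay above 0. When each library was centred on genes detected in 90% of the cells, the share of the counted genes that were higher fell from 90.2% to 72.4%, and among cells of 6000 to 8000 genes it was 76.02% with a median of all genes of 0.06. List medians below are to be read beside the 0.29, and counts of list members beside the 10.6% higher and 1.15% lower. Over all genes the differences on the plates had a Pearson r of 0.64 across genes, which are not independent. On both plates 748 genes were at least 1 higher and 64 at least 1 lower.

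**Figure D2:**
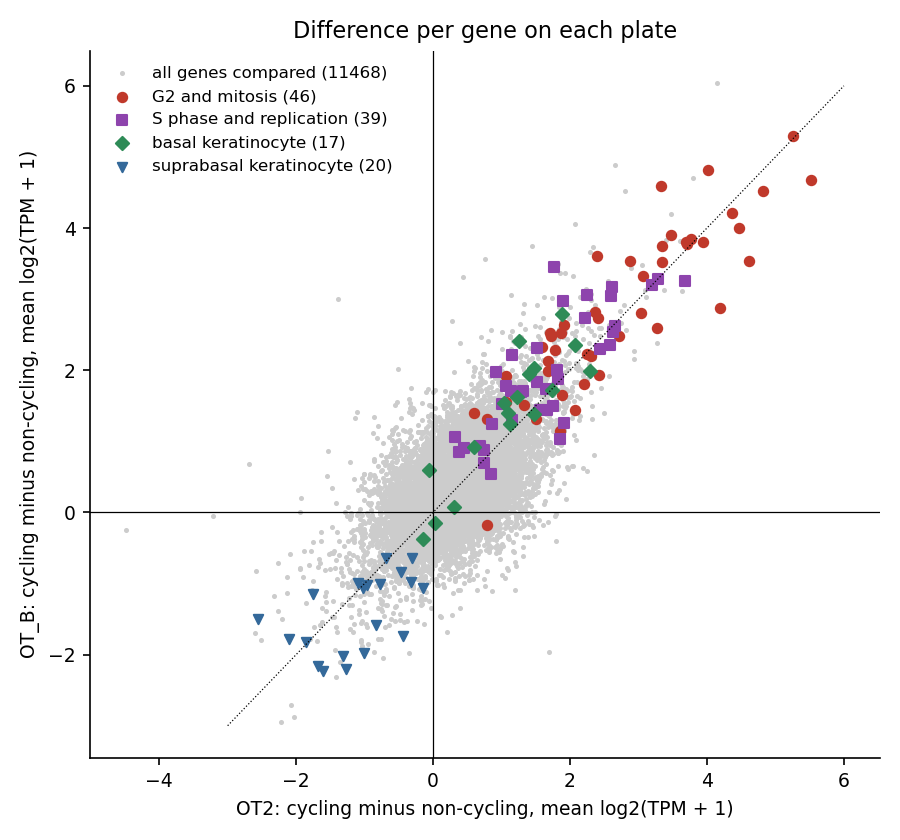
Difference in mean log2(TPM + 1), cycling minus non-cycling, for each of 11468 genes on OT2 (horizontal) and OT_B (vertical). Grey points are all genes, coloured points the members of 4 lists that passed the filter, and the dotted line marks equal values. Suprabasal members lie below 0 on both plates and basal members mostly above.

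Genes of G2 and mitosis were detected in few non-cycling cells. All 46 members of the list passed the filter, which a gene can pass through the cycling cells alone, and 45 were at least 1 higher, with a median difference of 2.58. Cdk1 (ENSMUSG00000019942, chromosome 10, 69335146 to 69352938, mm10) ranged from 0 to 348 TPM in cycling cells with a median of 48.33, and from 0 to 62.3 TPM with a median of 0 in non-cycling cells. It was detected in 28 of 30 cycling cells (93.3%, 77.9 to 99.2) and 2 of 93 non-cycling cells (2.15%, 0.262 to 7.55), a difference of 5.28 on the log2 scale (5.26 on OT2 and 5.30 on OT_B). The classes overlap through the 2 cycling cells without it and the 2 non-cycling cells with it.

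Ube2c had a median of 65.33 TPM in cycling cells (highest 501.8, detected in 26) and 0 in non-cycling cells (highest 19.89, detected in 8), a difference of 5.05. Birc5 (median 39.23 TPM, detected in 28, against 4 non-cycling cells) and Ccnb1 (34.59 TPM, 28 against 3) differed by 4.65 and 4.46. Both proteins act in mitosis. Ccna2, cyclin A2, differed by 4.28 and Cenpa, the centromeric histone, by 4.21. Ncapd2, a condensin subunit, was detected in all 30 cycling and 26 non-cycling cells and differed by 4.30. Psrc1, a spindle protein, was the member of the list that was not at least 1 higher, at 0.25 (0.78 on OT2, -0.18 on OT_B).

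Within a cell the programme was graded. The mean log2(TPM + 1) over the list ranged from 0.99 to 5.08 in cycling cells (median 3.11), from 0.10 to 3.36 in cells with 1 marker (median 0.44) and from 0 to 1.08 in non-cycling cells (median 0.34). In 29 of 30 cycling cells it was above the highest non-cycling cell, and 1 cycling cell at 0.99 lay within the non-cycling range. Cycling cells detected 14 to 46 of the 46 genes (median 39.5) and non-cycling cells 0 to 17 (median 5). The median of the cells with 1 marker lay near that of non-cycling cells, and the highest of them lay above the cycling median.

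Genes of S phase separated the classes less. Since Mki67 and Top2a set the classes, this order of the lists depends on that choice of genes and is no separate result. Of the 46 members, 39 passed the filter, 32 were at least 1 higher and the median was 1.601. Uhrf1, which maintains DNA methylation at replication forks, had a median of 19.62 TPM in cycling cells (0 to 285.9) and 0 in non-cycling cells (0 to 64.29), a difference of 3.43. Rrm1, the large subunit of ribonucleotide reductase, ranged from 6.06 to 71.82 TPM (median 22.68) against 0 to 42.22 (median 1.1), a difference of 3.28. Rrm1 was thus present in every cycling cell and in 49 of 93 non-cycling cells. Tk1, thymidine kinase, and Mcm7, a subunit of the replicative helicase, differed by 3.20 and 2.92.

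The S phase score ranged from 0.98 to 5.58 in cycling cells (median 2.37) and from 0.03 to 3.27 in non-cycling cells (median 0.72). Some non-cycling cells carried much of this list, since 3.23% of them lay above the cycling median and the most complete one detected 35 of the 46 genes. At least 10 of the 46 genes were detected in 49 of 93 non-cycling cells. The class name thus means only that Mki67 and Top2a were under a TPM of 1. The S phase and the G2 and mitosis scores had a Pearson r of -0.03 over the 30 cycling cells and 0.61 over the 93 non-cycling cells, a description over cells that share plates and library quality.

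Replication-dependent histones, which are made in S phase, had a median difference of 1.85, with 14 of 20 members that passed at least 1 higher. Hist1h2ap had the second largest difference of all genes inside the cell cycle names, 5.21, with a median of 134.1 TPM (0 to 3452) in cycling cells and 0 (0 to 163.6) in non-cycling cells. Hist1h1d, Hist2h3c2 and Hist1h1b differed by 3.78, 3.21 and 3.13. The plates disagreed in size here, with list medians of 0.95 on OT2 and 2.47 on OT_B. Histone genes are close copies of each other and their transcripts mostly lack poly(A) tails, so single members are uncertain in such libraries.

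**Figure D3:**
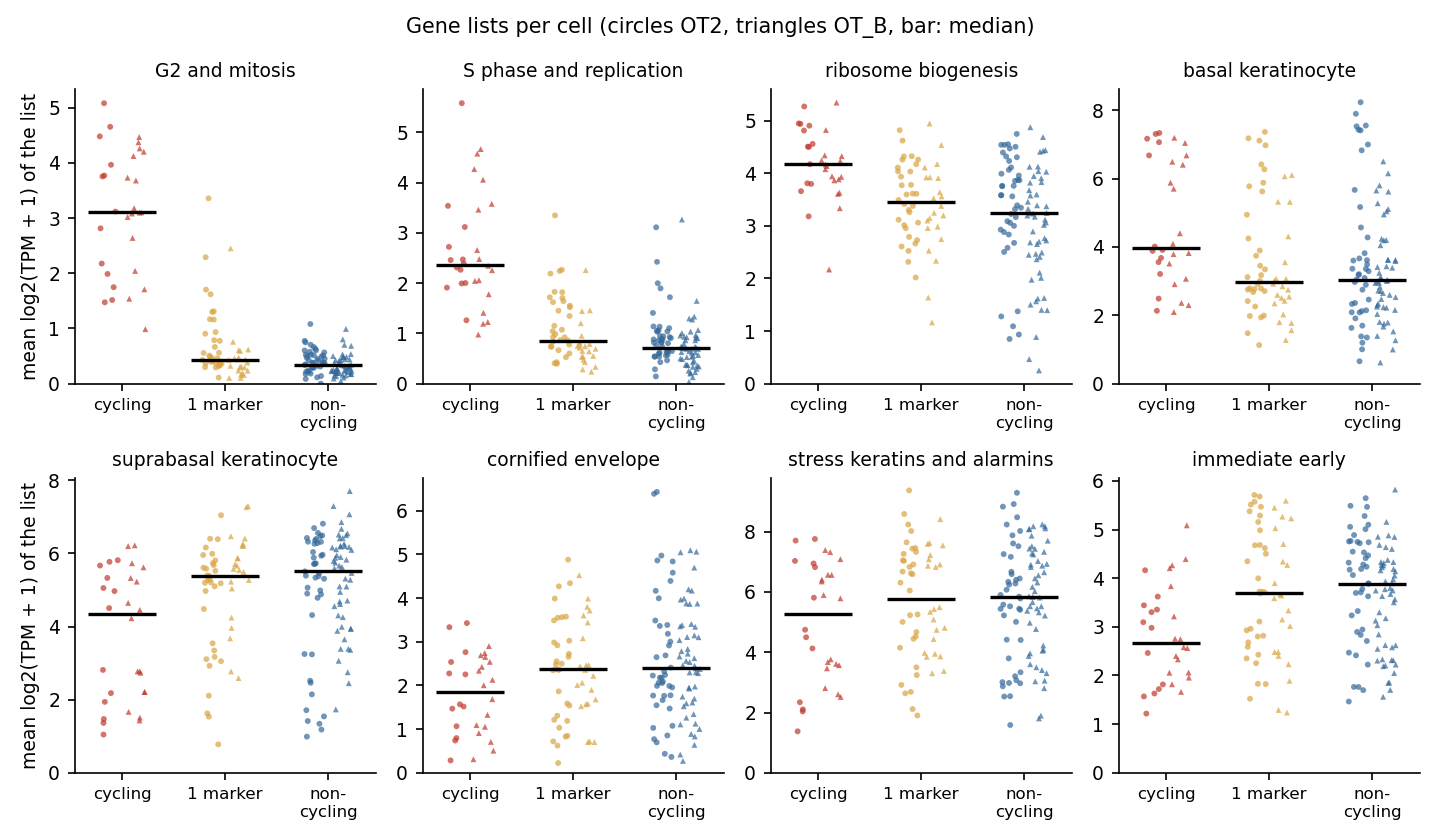
Mean log2(TPM + 1) over the members that passed the filter for 8 gene lists, in each cycling cell (n = 30), each cell with 1 marker (n = 54) and each non-cycling cell (n = 93). Circles are OT2, triangles OT_B and bars medians. The classes separate on G2 and mitosis, and overlap on the keratinocyte, stress and immediate early lists.

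Outside the cell cycle names, 11160 genes were compared, of which 984 (8.82%) were at least 1 higher in cycling cells and 132 (1.18%) at least 1 lower. Of these, 983 and 132 had the same sign on both plates, which is favoured by choosing them on both plates pooled. The leading higher genes included nuclear architecture and chromatin. Hmgn2, a nucleosome-binding protein (ENSMUSG00000003038, chromosome 4, 133964738 to 133968650), had a median of 35.81 TPM in cycling (0 to 159) and 0 in non-cycling cells (0 to 111.2), a difference of 3.22, with detection in 28 of 30 and 41 of 93 cells. Ndc1, a transmembrane nucleoporin (ENSMUSG00000028614, chromosome 4, 107367784 to 107416346), was detected in 29 of 30 cycling cells (96.7%, 82.8 to 99.9) and 21 of 93 non-cycling cells (22.6%, 14.6 to 32.4), a difference of 3.07. For both genes the upper values overlap between the classes while the medians stand apart. The gene lists described below can also hold genes inside the cell cycle names, and their counts include them. Among these are H2afz, H2afx, Lmnb1, Tubb5, Tuba1b, Stmn1 and Cdk2.

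The chromatin list had 19 of 30 passed members at least 1 higher, none lower and a median of 1.51. H2afz, the histone variant H2A.Z, ranged from 56.81 to 625 TPM in cycling cells (median 192.9) and from 0 to 202.4 TPM in non-cycling cells (median 32.44). Cbx5, heterochromatin protein 1 alpha, differed by 2.72 and H2afx, the variant phosphorylated at DNA breaks, by 2.69. H3f3a and Hmgn1, by contrast, differed by 0.17 and 0.15, below the shift of all genes, so the list did not move as a block. The list score of all 30 cycling cells was above the non-cycling median.

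The nuclear lamina and transport list had 21 of 27 members at least 1 higher and a median of 1.42. Nup85 of the nuclear pore scaffold differed by 2.67, and Lmnb1 and Lbr, which encode lamin B1 and its receptor, by 2.07 each. Lmna, the A-type lamin gene, was abundant in both classes, with medians of 217.4 and 170.4 TPM, and differed by 0.64. Nrm, a protein of the inner nuclear membrane outside the list, was detected in 23 of 30 cycling and 8 of 93 non-cycling cells and differed by 2.61.

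Of 15 tubulins and microtubule regulators, 9 were at least 1 higher. Tubb5 had a median of 233.5 TPM (20.75 to 748.8) in cycling cells and 19.96 (0 to 416.8) in non-cycling cells, a difference of 3.87. Tuba1b and Stmn1, the tubulin-binding stathmin, differed by 3.71 and 3.64 and Tubb6 by 2.53. Other isotypes did not follow, since Tubb2b and Tubb2a differed by -0.03 and -0.61. Tubulin genes are near copies, so reads may be split between them.

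Metallothioneins stood high in cycling cells. Mt2 (chromosome 8, 94172664 to 94173568), which binds zinc and other metals, ranged from 4.55 to 680.8 TPM (median 121.7) in cycling cells and from 0 to 520.7 TPM (median 7.04) in non-cycling cells, a difference of 3.05 (2.30 on OT2, 3.67 on OT_B). All 30 cycling cells and 54 of 93 non-cycling cells had it. Mt1 differed by 2.05, with medians of 211 and 82.34 TPM. Among cells of 6000 to 8000 genes Mt2 differed by 2.27. The glutathione and NRF2 list holds both. In it 8 of 26 passed members were at least 1 higher (median 0.57), beside 10.6% of all genes. They included Gclm and Gclc, the subunits of the enzyme that makes the glutathione precursor, at 1.44 and 1.41. In the band the list median was 0.10 and these genes were at 1.41 and 1.13.

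The remaining genes with the largest higher differences were of mixed function. Lsm3, a component of a U6 snRNA-binding ring, differed by 2.78 and Ube2s, an enzyme that extends ubiquitin chains for the anaphase-promoting complex, by 2.76. Calm2, a calmodulin gene, differed by 2.56 and 2700094K13Rik by 2.93. The mitochondrially encoded row mt-Co2 differed by 2.54, but by -0.79 in libraries matched as repeats of 18 cycling and 43 non-cycling cells. Its value thus depends on the library.

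Basal keratinocyte genes were higher in cycling cells. Of the 20 members 17 passed the filter, 12 were at least 1 higher and none lower, with a median of 1.41 (1.22 on OT2, 1.54 on OT_B). Itgb4, the hemidesmosomal integrin, had a median of 25.43 TPM in cycling cells (0 to 525.4, detected in 23 of 30) and 0.84 in non-cycling cells (0 to 1280, detected in 46 of 93), a difference of 2.38 (SD over cells 3.25 and 3.03). Itga3, a laminin-binding integrin, differed by 1.89. The highest single values of both genes lay in non-cycling cells.

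Krt5 ranged from 6.45 to 2914 TPM in cycling cells (median 1134) and from 0 to 3066 TPM in non-cycling cells (median 552.1), a difference of 2.12. Its partner Krt14 was abundant in both classes, at medians of 6767 and 6199 TPM, and differed by 0.77. Trp63, the transcription factor of stratified epithelia, was present in all 123 cells and differed by 0.31, and Cdh1, E-cadherin, by -0.28. Among cells of 6000 to 8000 genes the basal median was 0.79, Krt5 differed by 1.04 and Krt14 by 0.00, so the differences were smaller in that band. The basal score had a Pearson r with genes per library of 0.70 over the cycling and 0.57 over the non-cycling cells.

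Suprabasal genes were lower, and counts of lower genes here and below stand beside 1.15% of all genes. Of the 24 members 20 passed the filter, all 20 lay below 0, 13 were at least 1 lower and the median was -1.22 (-1.02 on OT2, -1.32 on OT_B). Ly6d, a surface protein of stratified epithelium, had medians of 655.7 TPM in cycling (0 to 2579) and 949 TPM in non-cycling cells (0 to 4487), a difference of -1.95. Krtdap, which is expressed as keratinocytes differentiate, had medians of 912.2 and 1621 TPM, a difference of -1.94. Sbsn, suprabasin, and Calm4, an epidermal calmodulin-like protein, differed by -1.94 and -1.91 and Dsc1, a desmosomal cadherin, by -1.84. In each case the classes overlapped widely and cycling cells were more often under a TPM of 1, as with Dsc1, detected in 8 of 30 against 55 of 93 cells.

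Krt1 and Krt10, the paired keratins of early differentiation, showed how broad the overlap is. Krt1 ranged from 0 to 2966 TPM in cycling cells (median 4.21, detected in 19) and from 0 to 7428 TPM in non-cycling cells (median 54.66, detected in 60), a difference of -1.39. Krt10 had medians of 1.475 and 19.26 TPM, with detection in 16 of 30 (53.3%, 34.3 to 71.7) and 65 of 93 cells (69.9%, 59.5 to 79), a difference of -0.98. Among cells of 6000 to 8000 genes Krt10 differed by 0.29 while the list median was -0.92. Krt10 itself was therefore not lower in the cycling cells of that band.

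Basal and suprabasal scores ran opposite to each other within both classes, with a Pearson r of -0.92 over 30 cycling and -0.89 over 93 non-cycling cells, which share plates and library quality. The basal score ranged from 2.09 to 7.34 in cycling cells (median 3.96) and from 0.62 to 8.24 in non-cycling cells (median 3.05), and 24 of 30 cycling cells lay above the non-cycling median. The suprabasal score ranged from 1.04 to 6.22 (median 4.34) against 0.99 to 7.71 (median 5.51), and 23 of 30 cycling cells lay below the non-cycling median. The classes overlapped over most of the axis, but 20 of 93 non-cycling cells had a basal score below the lowest cycling cell, and the highest suprabasal scores were those of non-cycling cells. Cells with Krt1 and Krt10 both under 10 TPM (15 cycling and 34 non-cycling) were also compared. The basal median was then 1.74 and the suprabasal median -1.35, against 1.41 and -1.22 over all cells. Krt1 and Krt10 are in the suprabasal list, so this choice used genes that were then compared. The part of differentiation in these differences was not tested.

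**Figure D4:**
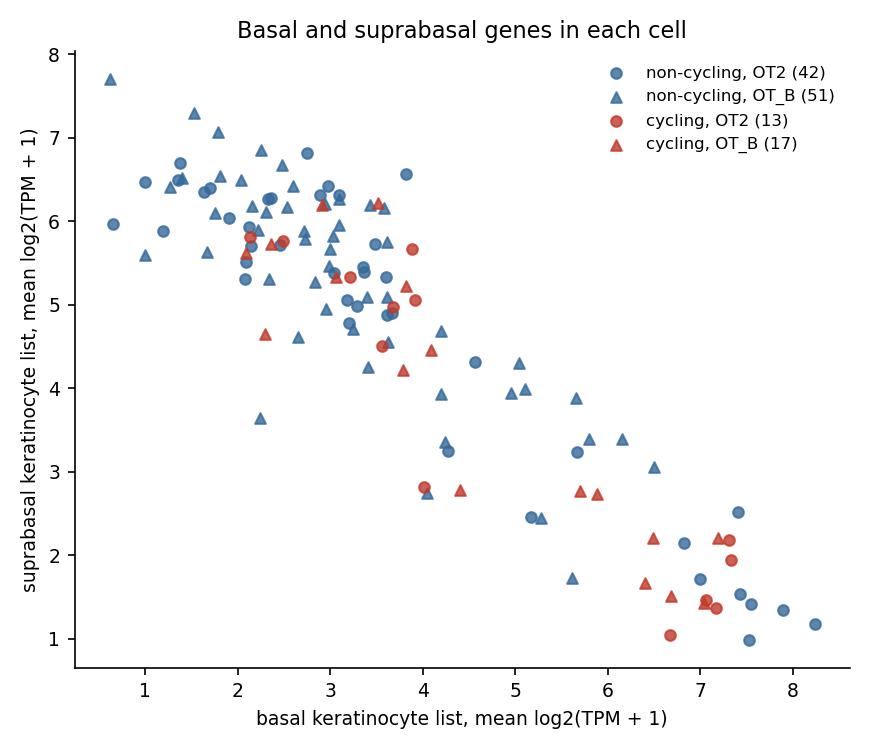
Suprabasal score (vertical) against basal score (horizontal), both mean log2(TPM + 1) over the members that passed the filter, for each cycling (red) and non-cycling (blue) cell. Circles are OT2 and triangles OT_B. Both classes run along 1 downward axis (r = -0.92 and -0.89), and the end with the lowest basal and highest suprabasal scores holds non-cycling cells.

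Genes of the cornified envelope and of stress were lower in cycling cells too. Of 40 cornified envelope genes 24 passed the filter, 8 were at least 1 lower, none higher, and the median was -0.77. Sprr1a, a cross-linked envelope precursor, differed by -1.77, Dsg1b, a desmoglein, by -1.58, Casp14, a protease of the cornifying cell, by -1.47 and Tgm1, the cross-linking transglutaminase, by -1.33. Lor, loricrin of the terminal stage, was detected in 1 cell of each class, and Flg2, a filaggrin relative, in none. Ivl, involucrin, differed by -0.08 and Tgm3 by 0.04, so not every envelope gene was part of it.

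Krt16, a keratin of wounded and hyperproliferative epidermis, had the largest lower difference outside the cell cycle names. It ranged from 0 to 7190 TPM in cycling cells (median 541.1, detected in 24 of 30) and from 0 to 9494 TPM in non-cycling cells (median 2089, detected in 92 of 93), a difference of -2.62 (-2.22 on OT2, -2.94 on OT_B; ENSMUSG00000053797, chromosome 11, 100246091 to 100248902). Its SD over cells was 4.99 on the log2 scale in cycling cells and 3.07 in non-cycling cells, and 6 cycling cells and 1 non-cycling cell were under a TPM of 1. Krt6a, which pairs with it, had medians of 1896 and 2915 TPM and differed by 0.04, and Krt6b differed by -1.23. Of the 17 passed members of the stress list 5 were at least 1 lower, with Stfa3, a cystatin, at -1.37 and S100a8, an alarmin, at -1.09, and the median was -0.76.

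Among the other lower genes, Tmem45a was detected in 6 of 30 cycling cells (20%, 7.71 to 38.6) and 57 of 93 non-cycling cells (61.3%, 50.6 to 71.2), a difference of -2.50. Clic3, a chloride intracellular channel family member, was detected in 12 of 30 and 72 of 93 cells, with medians of 0 and 28.06 TPM and a difference of -2.44. For both, most cycling cells lacked what most non-cycling cells had. Aim1l, Fam84a and Fam25c differed by -2.10, -1.92 and -1.81.

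Immediate early genes, which respond within minutes to growth factors and to stress, were lower in cycling cells. Of the 20 members 19 passed, 7 were at least 1 lower and none higher, and the median was -0.85 (-1.16 on OT2, -0.61 on OT_B). Egr1 ranged from 0 to 87.97 TPM in cycling cells (median 8.405) and from 0 to 225.8 TPM in non-cycling cells (median 42.86), a difference of -1.59 (-2.59 on OT2, -0.82 on OT_B). Dusp1, a phosphatase of MAP kinases, had medians of 14.53 and 86.58 TPM and differed by -1.54, and Fosb by -1.30. Ier3 went the other way, at 0.55. The score was below the non-cycling median in 25 of 30 cycling cells. Among cells of 6000 to 8000 genes the list median was -0.67. There Egr1, Dusp1 and Fosb differed by -1.18, -0.67 and -0.71.

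Inhibitors of the cycle were mixed. The median over inhibitors and targets of p53 was 0.01, with 3 of 21 passed members at least 1 lower and none higher. Btg2, an antiproliferative gene that is in the immediate early list too, had medians of 0.86 and 12.98 TPM and differed by -2.09. Cdkn1a, the p21 inhibitor, ranged from 0 to 276.9 TPM in cycling (median 74.19) and from 0 to 843.1 TPM in non-cycling cells (median 128.1), a difference of -1.37 (-0.80 on OT2, -1.78 on OT_B). It was detected in 28 of 30 and 92 of 93 cells, so cycling cells had less of it without lacking it. Trp53inp1 differed by -1.10 and Btg1 by -0.78, while Cdkn1b and Cdkn2a, the inhibitors p27 and p16, differed by 0.17 and 0.11.

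Of the G1 cyclins, kinases and growth drivers 5 of 17 passed members were at least 1 higher (median 0.66), beside 10.6% of all genes. Cdk2, the S phase kinase, differed by 1.49, Ccnd1, cyclin D1, by 1.35, and its partners Cdk4 and Cdk6 by 1.32 and 1.17. Cdk4 was detected in 81 of 93 non-cycling cells and Cdk2 in 21. Among cells of 6000 to 8000 genes Cdk2 stayed at 1.49, and Ccnd1, Cdk4 and Cdk6 were at 0.46, 0.74 and 0.40. Hras, whose activated form drives these tumours, had medians of 60.05 and 40.95 TPM and differed by 0.66, and Myc by 0.19. Whether the row also holds transgene reads was not analysed here. The list median in that band was 0.03.

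The lists of ribosome biogenesis, RNA splicing and nucleotide and folate metabolism lay above the shift of all genes. Ribosome biogenesis had 17 of 29 passed members at least 1 higher and a median of 1.10, led by Dkc1, the pseudouridine synthase dyskerin, at 1.998 and the snoRNP core proteins Nop56 and Nop58 at 1.66 and 1.602. The cytosolic ribosomal proteins themselves did not share it, with 0 of 38 members at least 1 higher or lower and a median of 0.05. RNA splicing had 17 of 25 members at least 1 higher (median 1.13, Snrpb 1.87, Snrpd1 1.82), and nucleotide and folate metabolism 17 of 29 (median 1.12, Dctpp1 2.07, Phgdh 2.05). Among cells of 6000 to 8000 genes these 3 medians were 0.53, 0.66 and 0.65, against 0.06 for all genes. Chaperones had 8 of 24 members at least 1 higher (median 0.78, with Dnajc9, a histone chaperone, at 2.26), oxidative phosphorylation 5 of 31 (0.49) and the proteasome 3 of 25 (0.68), beside 10.6% of all genes. These medians in the band were 0.29, 0.07 and 0.09, so those of oxidative phosphorylation and the proteasome lay near the 0.06 of all genes.

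Among genes that face the immune system, Lgals9 and Cd276 were at least 1 higher in cycling cells and Cd80 and Cd274 were not. Cd80, a costimulatory ligand, was detected in 9 of 30 cycling cells (30%, 14.7 to 49.4) and 18 of 93 non-cycling cells (19.4%, 11.9 to 28.9), and differed by 0.22 (0.53 on OT2, -0.01 on OT_B). Cd274, the ligand PD-L1, was detected in 4 of 30 (13.3%, 3.76 to 30.7) and 11 of 93 (11.8%, 6.05 to 20.2), and differed by 0.20. For both, the median was 0 TPM in each class. Cd80 was at -0.15 among cells of 6000 to 8000 genes. Lgals9, galectin 9, was detected in 18 of 30 cycling cells (60%, 40.6 to 77.3) and 23 of 93 non-cycling cells (24.7%, 16.4 to 34.8), and differed by 1.69 (0.71 on OT2, 2.47 on OT_B). Cd276, a B7 family member, was detected in 16 of 30 and 18 of 93 cells, with medians of 1.48 and 0 TPM and a difference of 1.5003. In the band of gene numbers Lgals9 and Cd276 differed by 1.11 and 1.27.

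The co-signalling list as a whole had a median of 0.22, below the shift of all genes, with 2 of 13 passed members at least 1 higher, beside 10.6% of all genes. MHC class I and antigen processing had a median of 0.48 and 2 of 22 members at least 1 higher, H2-Q4 and H2-Q7 at 1.11 and 1.08, which is no larger a share than the 10.6% of all genes. The interferon response had 0 of 20 members at least 1 apart and a median of 0.28 (-0.09 on OT2, 0.55 on OT_B). In that band the MHC class I median was -0.12, with H2-Q4 at 0.53 and H2-Q7 at 0.05. The only passed MHC class II gene, Cd74, was detected in 3 of 30 and 10 of 93 cells.

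Lists of signalling and of the tumour margin, from TGF-beta to Notch, each held 2 or 3 members at least 1 higher. Their shares lay above the 10.6% of all genes, but on lists of 10 to 18 passed members each gene moves a share widely. The counts are therefore not read as a result about these lists. The TGF-beta and SMAD list had 3 of 18 passed members at least 1 higher (median 0.65), Id3, Tgif1 and Ski at 1.31, 1.17 and 1.02. Within 6000 to 8000 genes that median was 0.32 and these genes were at 1.22, 0.62 and 0.82. Matrix and protease genes had 3 of 13 (median 0.74), Sparc, Mmp14 and Tnc at 1.58, 1.49 and 1.27 and detected in 30, 34 and 13 of the 93 non-cycling cells. In the band the matrix median was 0.23 and these genes were at 0.80, 0.90 and 0.90. The list of mesenchymal transition and stem-like genes had 3 of 10 (median 0.35, and 0.07 in the band). These were Lgals1, Itgb6 and Itga5 at 1.44, 1.16 and 1.05 (0.56, 1.34 and 0.68 in the band). In the same list Cd44 differed by 0.36 and Vim was detected in 5 and 6 cells. The Wnt and Notch lists had medians of 0.39 and 0.40 (0.22 and 0.05 in the band). At least 1 higher were 2 of 17 and 2 of 11 passed members. They were Wnt5a and Dkk3, and Jag2 and Rbpj (in the band 0.44, 1.11, 1.02 and 0.98). Cholesterol synthesis, lysosome and autophagy, and the unfolded protein response had medians of -0.03, 0.08 and 0.10, all below the shift of all genes.

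Many of these libraries had a mutual best match on other plates of the same table, taken here as a repeat of the same cell. No label states this. The matches gave a check of the classes on libraries that did not choose them, though not on other cells if the matches hold. By mutual best correlation, 47 libraries of OT2 matched a library of the same well name on OT_A (r 0.608 to 0.952, median 0.91) and 43 of OT_B matched one on OT1 (0.663 to 0.935, median 0.87). The highest r between any pair of kept libraries within OT2 and OT_B was 0.755, so the weakest of these matches are no closer than unrelated libraries can be. Of 18 cycling cells with such a repeat 17 were cycling in it and 1 had a single marker. Of 43 non-cycling cells 37 were non-cycling, 5 had a single marker and 1 was cycling. Including 44 further matches with another well name, 25 of 26 cycling and 56 of 64 non-cycling cells kept their class. With expression taken from those repeats, the medians were 2.54 for G2 and mitosis, 1.69 for S phase, 1.53 for basal, -1.40 for suprabasal and -0.88 for immediate early genes.

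The same rule was applied to a pair of gates labelled before the transfer, from mice of the strain TRE-HrasG12V;SBE-mCherry-PGK-rtTA3, which lack ovalbumin and carry a reporter of TGF-beta signalling. The gates differ from the cells after transfer in strain, sort and treatment, so values are set side by side with no test. The CD44-negative gate (integrin α6+, no mCherry, CD34 or CD44) held 31 cycling and 28 non-cycling cells, and 34.1% of its 91 kept cells cycled (24.5 to 44.7). The reporter-positive gate (α6+, mCherry+, CD34+, CD44+) held 18 and 67, and 17.1% of 105 cycled (10.5 to 25.7). Of its 105 libraries 99 had a mutual best match among libraries labelled after transfer, all on the plates OT_C and OT_D and none on OT2 or OT_B, so the label of this gate is uncertain. The CD44-negative gate had 0 of 91. Cycling cells of these gates had medians of 7347 and 8046 genes, and non-cycling ones 6524 and 7812.

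The lists were then set beside those after transfer. G2 and mitosis had medians of 2.82 in the CD44-negative and 3.00 in the reporter-positive gate, and S phase 1.86 and 1.71, against shifts of all genes of 0.17 and 0.06. The basal median was 0.14 and -1.14, against 1.41 after transfer, and the suprabasal median -0.36 and 0.55, against -1.22. Itgb4 differed by 0.39 and -1.42 in the gates, and Krt16 by -1.20 and 1.59. Immediate early genes had medians of -0.10 and -0.70. On the plates of the reporter-positive gate the basal median was -1.45 (CSC1) and 0.22 (CSC2), so its sign there rests on 1 plate. Both gates selected on integrin α6, a basal gene, and the sort after transfer did not; sort, strain and treatment cannot be told apart here.

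**Figure D5:**
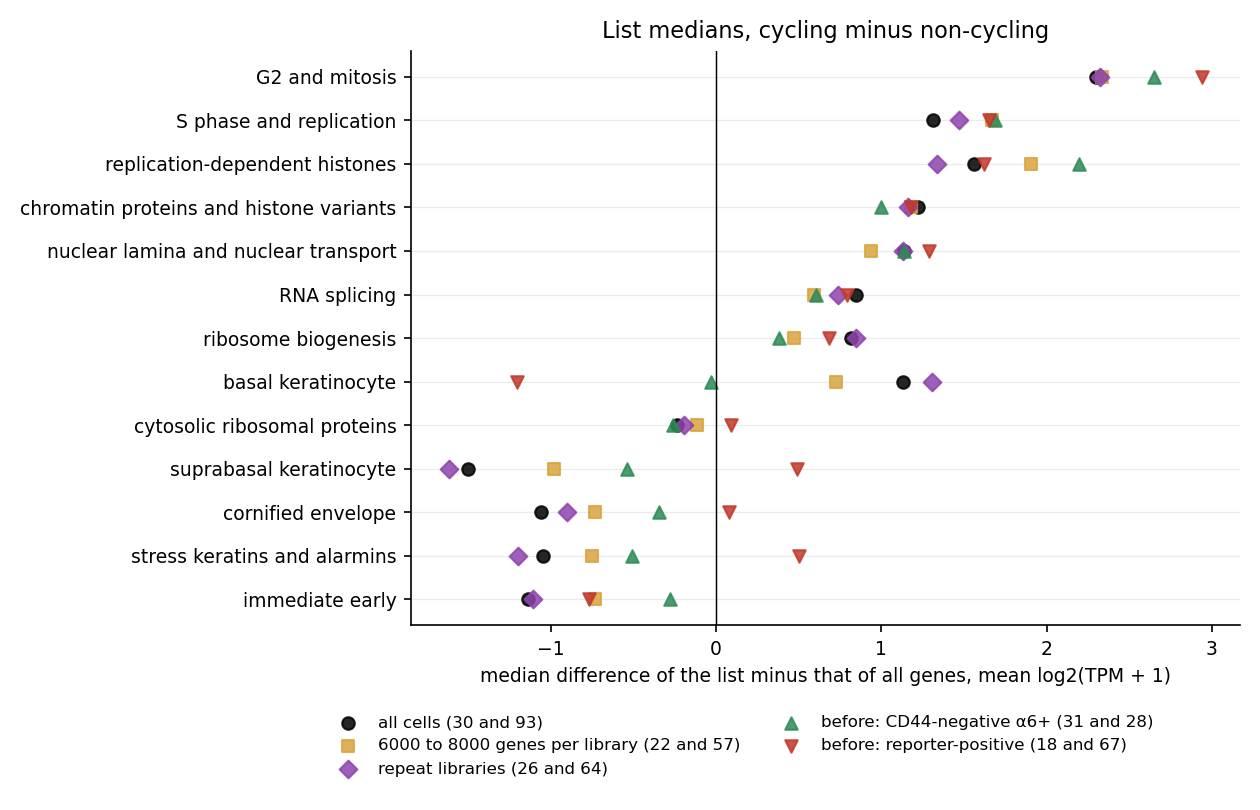
Median difference of 13 lists, cycling minus non-cycling, after subtracting the median of all genes in the same setting, in units of mean log2(TPM + 1). Black circles are all cells after transfer, squares cells of 6000 to 8000 genes, diamonds repeat libraries, and triangles the gates labelled before transfer. The basal median is above 0 after transfer and below 0 in the reporter-positive gate. In the CD44-negative gate it lies slightly under that of all genes (0.14 against 0.17). Before subtraction the reporter-positive plates were at -1.45 (CSC1) and 0.22 (CSC2). The G2 and mitosis median is above 2 in every setting shown.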

How the data were processed

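Single cells were sequenced as Smart-seq2 libraries, 1 per well, and the deposited values are TPM per gene and library, made by the authors. Bowtie2 2.2.9, RSEM 1.2.30 and mm10 are named, per the submitters' processing notes. Details on reads that map to several genes, and on spike-in quantification, were not given in the sources used here. The table held 46517 gene rows, of which 46005 identifiers matched GENCODE M21 for symbols and coordinates, and 92 ERCC spike-in rows. A set of 8 ribosomal rows took most of the TPM, so other genes are shares of the rest.

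Classes followed the rule given in the report. Genes at a TPM of at least 1 in at least 10% of the 123 cells were compared by mean log2(TPM + 1) and by share of cells at a TPM of at least 1, with exact binomial 95% intervals. A gene was counted as higher or lower at a difference of at least 1. No doublet caller was run. No test was made, since no animal is named and the classes were chosen on the RNA. Genes inside the cell cycle names are those of the S phase, G2 and mitosis and histone lists and a pattern of symbols.

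The classes, 38 gene lists and the naming rule were chosen with earlier results of these data known. The text names the 8 genes with the largest differences inside the cell cycle names, the 12 highest and 12 lowest protein-coding genes outside them (at least 0.5 in the same direction on both plates), up to 4 genes per list, and Cd80, Cd274, Cdkn1a, Krt14, Krt10, Hras and Ptprc. A gene that the rule names is not reported here. Other genes named were singled out after their values were seen. Repeat libraries were found by mutual best Pearson correlation of log2(TPM + 1). Promoters came from RefSeq (GRCm38.p6). Computations used Python 3.11.15, numpy 2.4.6, pandas 2.3.3, scipy 1.17.1 and matplotlib 3.10.9, and 16 alternatives were run.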

Additional observations from a re-analysis of the deposited data

How the results depend on the processing

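No paired analysis was possible because the labels name no animal and no test was made. The counts of genes at least 1 higher and lower (1218 and 132, and outside the cell cycle names 984 and 132) depended on the scale. They were 3587 and 370 (3306 and 370 outside) with a pseudocount of 0.1, and 119 and 18 (66 and 18) with one of 10. After rescaling without spike-in, ribosomal and mitochondrial rows they were 2535 and 287 (2267 and 287), with centring 675 and 257 (476 and 257), and among cells of 6000 to 8000 genes 631 and 199 (395 and 199). Lower genes numbered 294 (294 outside) in repeat libraries of the same well name and 219 (219 outside) among cells with Krt1 and Krt10 under 10 TPM. Cycling cells made up 10.7% with both markers at a TPM of at least 10. In each case the cause was not tested. mt-Co2 reversed to -0.79 in repeat libraries of the same well name and to -0.18 in those of any well name, the latter an alternative chosen after seeing the data. Leaving out a plate name gave 1398 to 1617 higher and 158 to 193 lower genes (1189 to 1374 and 157 to 192 outside), and shares of 14.9% to 18.9%. Over all alternatives the medians ranged from 0.83 to 4.77 for G2 and mitosis, 0.73 to 2.06 for basal, -1.68 to -0.83 for suprabasal and -1.16 to -0.51 for immediate early genes. TPM keep no depth, so a gene at 0 cannot be told from one missed by the library.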

Other observations

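All 44 repeat libraries matched under another well name lay in the same row and 2 columns further on the repeat plate, 22 for OT2 on OT_A (median r 0.93) and 22 for OT_B on OT1 (0.90). Of 29 cells with a single marker and a repeat of the same well name, 18 had a single marker again, 8 were non-cycling and 3 were cycling in the repeat.

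Among the genes of the lysosome and autophagy list, Map1lc3a, which encodes the autophagosome protein LC3A, differed by -1.46 between the classes (-1.45 on OT2, -1.47 on OT_B), and by -0.72 and -0.79 in the CD44-negative and reporter-positive gates. In the list of unfolded protein and amino acid stress 4 of 18 passed members were at least 1 higher, 6 lay below 0 and the median was 0.10, under the shift of all genes. Of those 4, Hsp90b1 was at 1.77, Pdia4 at 1.34 and Hspa5 at 1.17 (0.998, 0.51 and 0.42 among cells of 6000 to 8000 genes), against 1.23, 1.03 and 0.50 in the CD44-negative and 0.25, -0.20 and -0.33 in the reporter-positive gate.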
